A study of Mus musculus with 6 samples.

Results

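This account describes 10 neuronal adhesion genes of the immunoglobulin superfamily and their partners, L1cam, Chl1, Nrcam, Nfasc, Cntn1, Cntn2, Cntnap1, Cntnap2, Ncam1 and Ncam2, which were taken by gene symbol from a table of 45777 genes. All 10 were found and all 10 passed the filter on low counts. The RNA came from neurons of the dorsal root ganglia (DRG), the sensory ganglia beside the spinal cord. They were cultured from wild-type C57BL/6 mice aged 8 weeks, which the labels call female. Sex-linked transcripts, given below, differed between the groups against that label. There were 3 libraries of cells that received 100 ng/ml of recombinant ONCM (oncomodulin, a protein of the parvalbumin family that binds calcium) for 12 hours, and 3 libraries of cells given PBS as the negative control over the same period. The labels call the samples biological replicates and name no separate cultures or animals, so the spread that the p-values rest on may be technical.

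The L1 family (L1cam, Chl1, Nrcam, Nfasc) are transmembrane proteins that bind one another and other partners outside the cell and hold on to the spectrin skeleton through ankyrin inside it. The contactins (Cntn1, Cntn2) are anchored to the membrane by a lipid and act together with the contactin-associated proteins, or Casprs (Cntnap1, Cntnap2). In myelinated nerve these proteins mark the domains around the node of Ranvier: Nrcam and axonal Nfasc at the node, Cntn1 with Cntnap1 and glial Nfasc at the paranode, and Cntn2 with Cntnap2 beside the potassium channels of the juxtaparanode. NCAM, the product of Ncam1, is a homophilic adhesion protein that can carry polysialic acid, and L1 and NCAM are both known for their part in neurite outgrowth. Non-myelinating Schwann cells also make L1 and NCAM, so transcripts of these genes need not come from neurons.

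Promoter sequences are shown for Chl1, which had the largest rise of the 10, and for Cntn1 and Cntnap2, which fell. Cntn1 and Cntnap2 have further annotated starts, not shown, whose stretches hold no match. Each is the 250 bases before an annotated start in RefSeq, build GRCm38.p6, the assembly behind mm10, written 5′ to 3′. Capitals mark a match to an interferon-stimulated response element in Chl1 and to a GC box in Cntnap2. The Chl1 stretch is chr6:103510626-103510875 on the plus strand, the Cntnap2 stretch chr6:45059811-45060060 on the plus strand, and the Cntn1 stretch, which holds no match, chr15:92050915-92051164 on the plus strand. The Chl1 stretch lies inside the annotated span of the gene, which starts at 103510584, so its match is not upstream of that position.
Chl1: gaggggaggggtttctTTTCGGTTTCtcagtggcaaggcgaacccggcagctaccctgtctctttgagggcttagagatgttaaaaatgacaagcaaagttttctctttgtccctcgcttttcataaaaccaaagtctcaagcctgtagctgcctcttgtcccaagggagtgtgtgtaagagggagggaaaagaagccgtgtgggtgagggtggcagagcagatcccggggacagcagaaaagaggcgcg
Cntnap2: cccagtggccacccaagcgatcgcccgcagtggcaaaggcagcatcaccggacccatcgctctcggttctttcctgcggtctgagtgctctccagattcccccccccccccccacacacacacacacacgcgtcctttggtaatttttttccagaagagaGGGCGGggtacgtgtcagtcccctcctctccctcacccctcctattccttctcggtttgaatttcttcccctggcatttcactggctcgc
Cntn1: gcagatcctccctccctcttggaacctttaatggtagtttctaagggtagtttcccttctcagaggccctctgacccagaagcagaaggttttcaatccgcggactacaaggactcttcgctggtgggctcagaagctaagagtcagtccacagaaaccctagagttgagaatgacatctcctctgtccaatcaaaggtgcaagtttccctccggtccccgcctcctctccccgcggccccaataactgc
The table held 13 starts for 8 of the 10 genes, with no entry for Cntnap1 and Ncam1. The letters searched, on both strands, were GAAA followed by any pair of bases and a second GAAA for the response element, TGANTCA for AP-1, TGACGTCA for the cyclic AMP element, TTCNNNGAA for STAT factors, GGGCGG for the GC box and CACGTG for the E-box. The response element letters stood in 1 of the 13 stretches, that of Chl1, and in 2.98% of all 32851 promoter stretches of the same length. The GC box letters stood in 6 of the 13, from 5 genes, and in 32.7% of all stretches. The L1cam stretches, which both hold a GC box match, overlap each other, so the 13 are not all separate. The AP-1, cyclic AMP, STAT and E-box letters were in none of the 13, and in 6.75%, 1.55%, 7.02% and 6.02% of all stretches. These matches describe letters and not binding.

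Library totals ran from 53770820 to 60291315 counts with ONCM and from 55920700 to 64477014 counts with PBS, and the 10 genes together took 0.244% to 0.259% and 0.269% to 0.278% of them. The defining markers of neurons were present in all libraries. The 12 neuronal markers summed to 19900 to 21100 CPM with ONCM and 20000 to 20500 CPM with PBS. CPM are counts scaled to library size, here by the TMM method. Of these markers 3 rose and 7 fell, with a median log2 fold change of -0.40. The similar sums hold large changes both ways. Tubb3 averaged 3620 CPM with ONCM and 2070 CPM with PBS, and Nefl 5470 and 7030 CPM. Other cells were present too. The 15 Schwann cell markers summed to 4410 to 4540 CPM with ONCM and 4220 to 4290 CPM with PBS, and the 10 satellite glia markers to 2390 to 2540 and 2300 to 2360 CPM. The 10 fibroblast markers summed to 454 to 474 CPM with ONCM and 326 to 331 CPM with PBS, the 8 endothelial markers to 172 to 179 and 147 to 150 CPM, and the 12 macrophage markers to 162 to 169 and 44.9 to 51.3 CPM. No marker in these lists was at 0 in all libraries. The groups also differed in sex-linked transcripts against their common label of female, with Xist at 413 to 513 CPM with ONCM and 0.485 to 0.588 CPM with PBS, and Y-linked Ddx3y at 15.1 to 16.9 and 58.1 to 62.4 CPM. Any difference between the source cells and the treatment therefore cannot be told apart for any gene here.

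By edgeR's quasi-likelihood test with Benjamini-Hochberg adjustment over all 20354 genes tested, 2 of the 10 genes rose (Chl1 and Ncam1), 6 fell (Cntnap1, Cntn1, Ncam2, Cntnap2, Cntn2 and Nfasc) and 2 did not pass (L1cam and Nrcam). Over all genes tested 48.3% passed, 23.9% as rises and 24.4% as falls. Among the 10040 genes with a mean of at least 10 CPM, a level all 10 exceeded, 62.8% passed, 29.2% as rises and 33.6% as falls. A count of 8 called genes among 10 therefore stands beside a high background. The libraries of the 2 groups did not overlap for 8 of the 10 genes, all but Nrcam and Nfasc, against 55.6% of all genes. That share covers tested genes of every level and was not computed for those of at least 10 CPM. The median log2 fold change was -0.16 over the 10 genes and 0.00 over all genes tested. In a bulk sample, fewer cells of a type and less RNA per cell cannot be told apart.

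**Figure D1:**
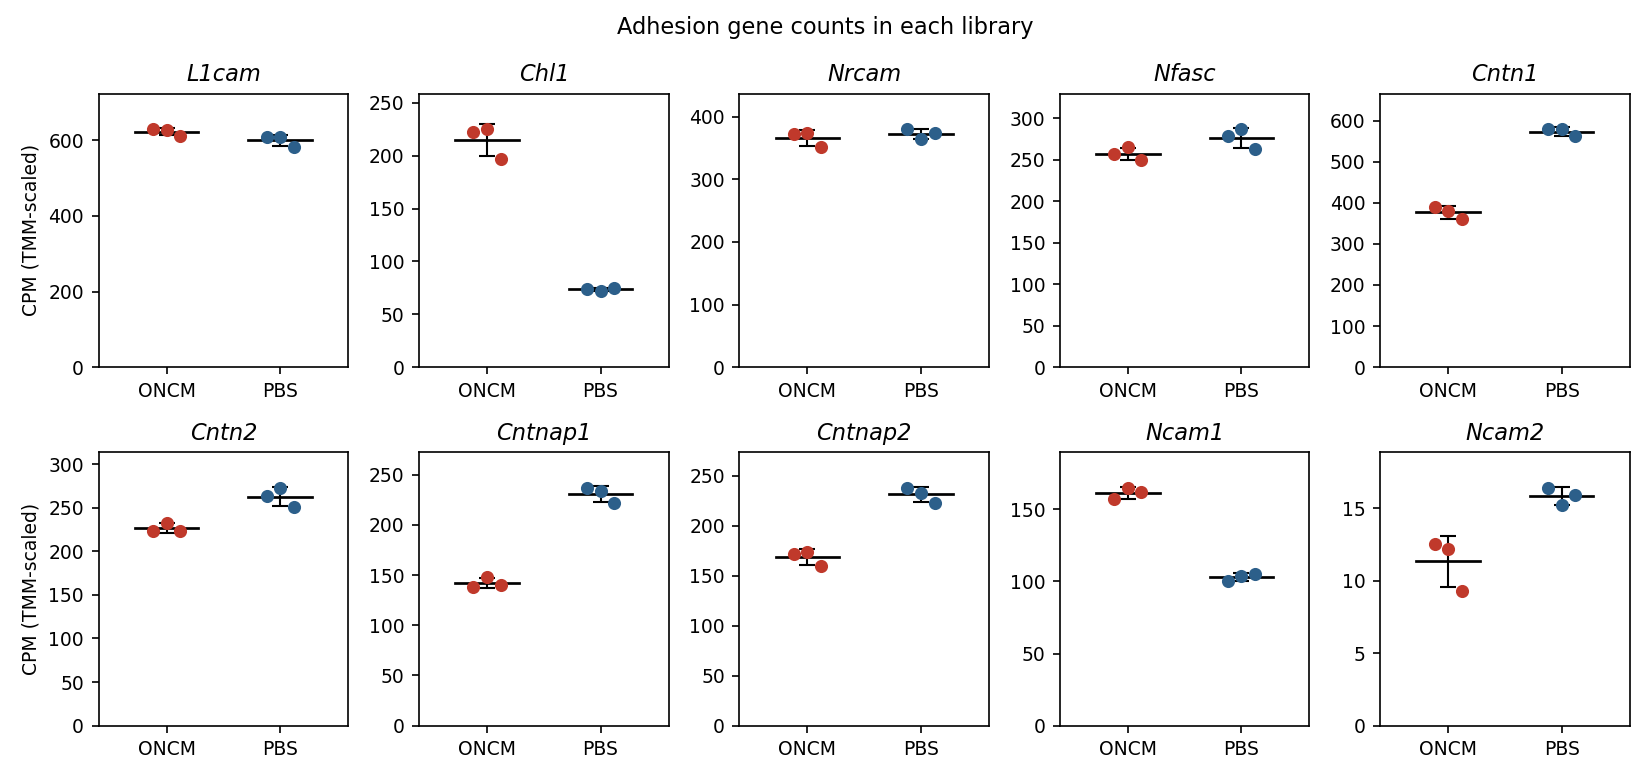
TMM-scaled CPM (y axis, starting at 0, its scale set for each gene) of the 10 adhesion genes, with a point for each of 3 ONCM libraries on the left and 3 PBS libraries on the right, a line at the mean and bars for the SD. Chl1 and Ncam1 were higher in every ONCM library, Cntn1, Cntn2, Cntnap1, Cntnap2 and Ncam2 were lower in every one, and Nrcam and Nfasc overlapped.

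Within the L1 family the 4 genes did not move as a group. Chl1, the close homolog of L1 (chromosome 6, 103510584 to 103733038), had 222, 225 and 197 CPM in the ONCM libraries, against 73.8, 72.4 and 74.7 CPM in the PBS libraries. The lowest ONCM library stood far above the highest PBS library. The rise was 2.91-fold (log2 fold change 1.54, SE 0.04, edgeR adjusted p = 6.77e-15), and 3.26% of all genes tested had a larger rise. CHL1 protein is known as an adhesion molecule of growing axons and as a partner of neuropilin in semaphorin responses. L1cam, the founding member of the family (chromosome X, 73853778 to 73880838), had 629, 626 and 611 CPM with ONCM, against 608, 609 and 583 CPM with PBS. Its groups just failed to touch, at 611 and 609 CPM, but the log2 fold change of 0.05 (95% interval -0.01 to 0.11, edgeR adjusted p = 0.125) did not pass.

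L1cam is the only one of the 10 on chromosome X, which is the chromosome on which Xist differed between the groups. Of 650 tested X-linked genes, 21.5% rose and 27.8% fell with a median log2 fold change of -0.04, beside 24.0% and 24.2% with a median of 0.00 for 19661 genes outside X, Y and the mitochondrial genome. The part of the Xist difference in the L1cam value was not tested. Without ONCM replicate 3 the L1cam value passed at 0.07 (edgeR adjusted p = 0.0364), and limma on log2(TPM + 1) gave -0.01 (adjusted p = 0.866), so no direction is given for it.

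Nrcam and Nfasc, the nodal members of the family, had small differences. Nrcam (chromosome 12, 44328786 to 44605194), which helps to gather sodium channels at nodes, had 373, 374 and 352 CPM with ONCM, against 380, 364 and 374 CPM with PBS. The ranges overlapped, and the 95% interval of the log2 fold change ran from -0.09 to 0.04 (edgeR adjusted p = 0.555). Nfasc, encoding neurofascin (chromosome 1, 132564690 to 132741848), had 257, 265 and 250 CPM with ONCM, against 279, 287 and 263 CPM with PBS. It fell by 6.71% (log2 fold change -0.10, SE 0.03, edgeR adjusted p = 0.0223), although the highest ONCM library lay above the lowest PBS library. That call was lost without ONCM replicate 1 or 3, PBS replicate 1 or PBS replicate 2, with edgeR adjusted p from 0.0504 to 0.129. Gene-level counts do not separate the axonal and glial isoforms of neurofascin.

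**Figure D2:**
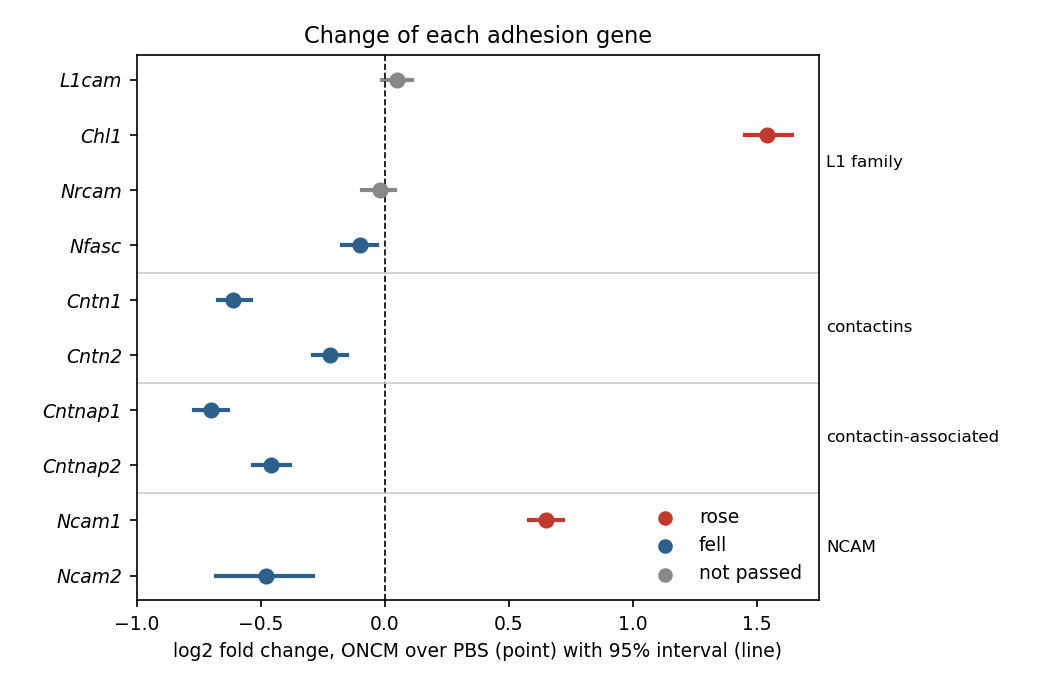
Log2 fold change of ONCM over PBS (x axis, point) with its 95% interval (line) for each of the 10 adhesion genes (y axis), grouped by family. Chl1 at 1.54 and Ncam1 at 0.65 lie right of 0, both contactins and both Casprs lie left of it, and the intervals of L1cam and Nrcam cross 0.

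Both contactins and both Casprs fell. Beside these falls, the 12 neuronal markers had a median log2 fold change of -0.40, with 7 that fell and 3 that rose. The ONCM to PBS ratio of their sums was 1.01. The part of neuron content in the values of these genes was not tested. Cntn1, the contactin of the paranode (chromosome 15, 92051152 to 92341967), had 389, 381 and 360 CPM with ONCM, against 579, 579 and 562 CPM with PBS. The highest ONCM library lay well below every PBS library. Cntn1 fell by 34.4% (log2 fold change -0.61, SE 0.03, edgeR adjusted p = 1.35e-11). Cntnap1, which encodes Caspr, the paranodal partner of contactin (chromosome 11, 101174617 to 101190724), had 138, 148 and 140 CPM with ONCM, against 237, 234 and 222 CPM with PBS. This was the largest fall of the 10 at 38.5% (log2 fold change -0.70, SE 0.03, edgeR adjusted p = 8.74e-12), and 6.20% of all genes tested had a larger fall.

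The juxtaparanodal pair fell less. Cntn2, also called TAG-1 (chromosome 1, 132509425 to 132543251), had 223, 233 and 223 CPM with ONCM, against 264, 273 and 251 CPM with PBS. It fell by 13.9% (log2 fold change -0.22, SE 0.03, edgeR adjusted p = 3.36e-05) with no overlap. Cntnap2, which encodes Caspr2 (chromosome 6, 45060061 to 47301393), had 172, 174 and 160 CPM with ONCM, against 238, 233 and 223 CPM with PBS. It fell by 27.1% (log2 fold change -0.46, SE 0.04, edgeR adjusted p = 6.46e-09), and again no library overlapped. A count to either strand within the Cntnap2 span could include 7 smaller genes, whose summed level was 1.58% of that of Cntnap2, and for the other 9 genes the overlapping genes came to at most 0.427%, that for Cntnap1.

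The NCAM pair moved in opposite directions. Ncam1 (chromosome 9, 49502129 to 49799393) had 157, 165 and 162 CPM with ONCM, against 100, 104 and 105 CPM with PBS. Every ONCM library lay above every PBS library, and the rise was 1.57-fold (log2 fold change 0.65, SE 0.03, edgeR adjusted p = 1.49e-11), with 10.9% of all genes rising more. Ncam2, a paralog best known from olfactory axons (chromosome 16, 81200697 to 81624290), was the least abundant of the 10. It had 12.5, 12.2 and 9.28 CPM with ONCM, against 16.4, 15.2 and 15.9 CPM with PBS, with ONCM replicate 3 lowest. Ncam2 fell by 28.5% (log2 fold change -0.48, SE 0.09, edgeR adjusted p = 0.000261), and the value was -0.36 without ONCM replicate 3. Beside the Ncam1 rise stood the summed markers of other cells. Their ONCM to PBS ratio was 1.05 for Schwann cells, 1.05 for satellite glia, 1.41 for fibroblasts, 1.18 for endothelial cells and 3.42 for macrophages. The median log2 fold changes of these lists, in the same order, were -0.01, 0.03, 0.34, 0.26 and 1.89. Single genes weighed on the sums. The fibroblast marker Dcn averaged 255 CPM with ONCM and 144 CPM with PBS, and the satellite glia marker Glul 415 and 262 CPM. The part of these cell types in the Ncam1 and Chl1 values was not tested.

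Levels can be compared between genes only per transcript length, for which the deposited TPM (abundance scaled to transcript length and library) were used. L1cam had the highest level in both groups, at 286 ± 8.04 TPM with ONCM and 288 ± 8.98 TPM with PBS (SD, n = 3 each), and Cntn1 was next at 161 ± 8.96 and 253 ± 6.30 TPM. With PBS there followed Cntnap1 at 109 ± 4.59, Cntnap2 at 94.5 ± 2.47, Nrcam at 88.1 ± 1.83, Cntn2 at 71.8 ± 3.51, Nfasc at 70.6 ± 3.97, Ncam1 at 41.4 ± 0.715, Chl1 at 23.6 ± 0.504 and Ncam2 at 9.89 ± 0.187 TPM. Only Cntn2 and Nfasc overlapped among neighbours in that order. With ONCM, Nrcam came after them at 83.5 ± 4.92 TPM, and 6 genes lay close together below it, Chl1 at 66.0 ± 5.61, Cntnap2 at 64.8 ± 2.95, Cntnap1 at 64.4 ± 2.81, Nfasc at 63.0 ± 2.51, Ncam1 at 62.1 ± 1.87 and Cntn2 at 58.5 ± 2.38 TPM. Each of these overlapped its neighbour, so their order with ONCM is not resolved. Ncam2 stayed last at 6.93 ± 1.14 TPM.

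**Figure D3:**
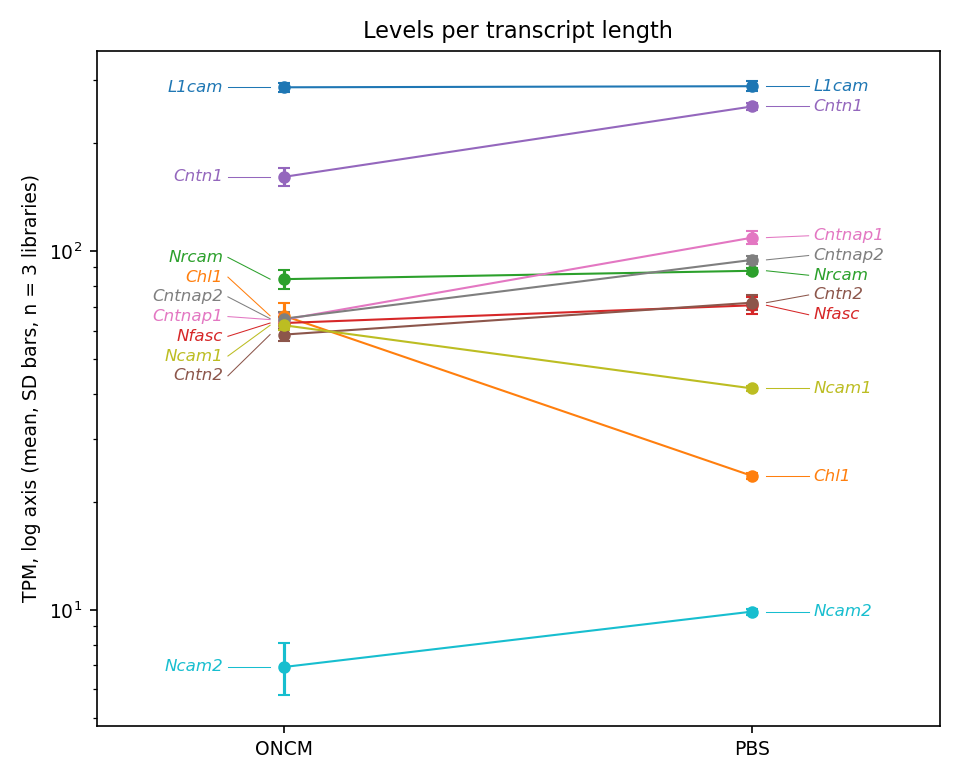
Mean TPM (y axis, log scale) of the 10 adhesion genes in ONCM libraries on the left and PBS libraries on the right, with SD bars over 3 libraries each. Chl1 and Ncam1 stand well below the middle of the set with PBS, at 23.6 and 41.4 TPM, and within it with ONCM, at 66.0 and 62.1 TPM.

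The makeup of the set differed accordingly. The L1 family held 54.5% ± 0.149 of the TPM of the 10 genes with ONCM and 44.8% ± 0.0588 with PBS (SD, n = 3 each). The contactins held 23.9% ± 0.206 with ONCM and 31.0% ± 0.136 with PBS, the Casprs 14.1% ± 0.204 and 19.4% ± 0.161, and the NCAM pair 7.54% ± 0.129 and 4.88% ± 0.212. In summed TPM the L1 family stood at 499 ± 20.8 with ONCM and 470 ± 12.8 with PBS, with the ONCM library of 475 TPM inside the PBS range, so its higher share came with lower sums of the contactins, at 219 ± 10.4 and 325 ± 9.53 TPM, and of the Casprs, at 129 ± 5.18 and 204 ± 7.04 TPM.

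Ratios of TPM within a library show whether partners kept their proportion. For 6 such ratios an exact two-sided permutation test over the libraries was run, which with 3 against 3 cannot go below 0.1. The ratio of Cntn1 to Cntnap1, the paranodal partners, was 2.65, 2.43 and 2.40 with ONCM, against 2.28, 2.32 and 2.36 with PBS. Both genes fell by similar amounts, and the log2 ratio was 0.10 higher with ONCM, or 0.06 higher without ONCM replicate 1. The ratio of Nfasc to Cntnap1 was 0.979 ± 0.0194 with ONCM and 0.645 ± 0.0187 with PBS (SD, n = 3 each), a log2 difference of 0.60. Cntn2 to Cntnap2 stood at 0.903 ± 0.0292 with ONCM and 0.760 ± 0.0215 with PBS, a log2 difference of 0.25.

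Ratios were also taken between members of one family. Ncam1 to Ncam2 was 7.96, 8.58 and 10.8 with ONCM, against 4.11, 4.26 and 4.18 with PBS, a log2 difference of 1.11. Chl1 to L1cam was 0.236, 0.240 and 0.215 with ONCM, against 0.0809, 0.0790 and 0.0867 with PBS, a log2 difference of 1.48. Nrcam to Nfasc, the nodal pair, was 1.32 ± 0.0416 with ONCM and 1.25 ± 0.0785 with PBS (SD, n = 3 each), and overlapped. The groups did not overlap for the other 5 ratios, each with the smallest p the exact permutation test allows (0.1, adjusted 0.12 over the 6 ratios), and Nrcam to Nfasc had 0.3 by the same test (adjusted 0.3).

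Of the 9 other genes of the contactin and Caspr families, 0 rose by edgeR, 8 fell and 1, Cntnap3, missed the threshold, with a median log2 fold change of -0.51. Over all genes tested 24.4% fell and 23.9% rose. Among all tested genes of 300 kb or more, a span that 8 of these 9 reached, 49.7% fell and 17.4% rose. The number of the 9 that rose was also 0 at an unadjusted p under 0.05, by DESeq2 and by limma on TPM. The number that fell was 7 by DESeq2 and 6 by limma on TPM. Cntnap4 averaged 14.8 ± 0.970 CPM with ONCM and 25.9 ± 0.745 CPM with PBS (SD, n = 3 each), a log2 fold change of -0.81. Cntn6 averaged 3.19 ± 0.229 and 7.19 ± 0.0809 CPM, a log2 fold change of -1.17. Cntnap5a and Cntn5 had log2 fold changes of -0.51 and -0.75, and Cntnap3 had 8.15 ± 0.227 and 8.12 ± 0.388 CPM. Cntn3, Cntn6 and Cntn4 lie in the same part of chromosome 6 as Chl1, with gaps of 946 kb from Cntn3 to Chl1 and 760 kb from Chl1 to Cntn6, and had log2 fold changes of -0.49, -1.17 and -0.23 beside 1.54 for Chl1. Nfasc and Cntn2 are closer neighbours on chromosome 1, with a gap of 21.4 kb.

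These families are known for very long genes, and span was not used to choose them. Genomic span ran from 16.1 kb for Cntnap1 and 27.1 kb for L1cam to 424 kb for Ncam2 and 2240 kb for Cntnap2, and 8 of the 9 paralogs spanned 300 kb or more. Over all genes tested, 49.7% of the 551 genes of at least 300 kb fell and 17.4% rose, beside 19.3% and 24.4% of the 12950 genes under 30 kb. Among genes with a mean of at least 10 CPM the shares were 57.3% and 17.8% of 354 genes, and 27.5% and 33.3% of 5419 genes. Cntnap2 and Ncam2, in the longest class, both fell. In the class from 100 to 300 kb, where 37.8% of 1862 genes fell and 22.7% rose, Chl1 and Ncam1 rose, Cntn1 and Nfasc fell, and Nrcam did not pass. In the class under 30 kb, Cntnap1 fell and L1cam did not pass. The part of span in the values of the 10 genes was not tested.

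**Figure D4:**
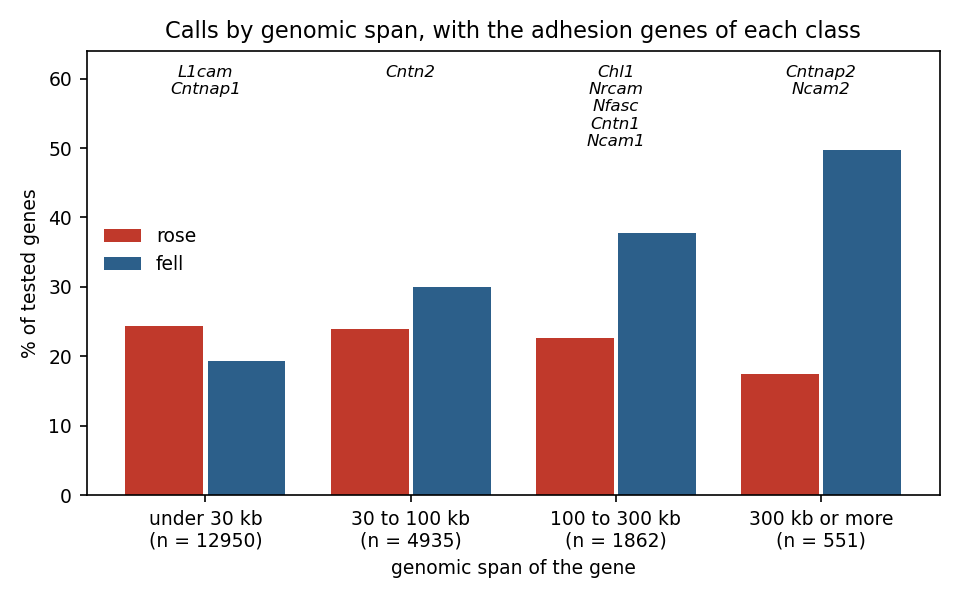
Share of tested genes that rose or fell with ONCM (y axis, percent) in 4 classes of genomic span (x axis, with the number of genes), and the adhesion genes in each class. The share that fell was 19.3% for genes under 30 kb and 49.7% for genes of 300 kb or more, the class of Cntnap2 and Ncam2.

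The intracellular anchors and channel partners of the adhesion genes changed in both directions. The list of ankyrin, spectrin and node or paranode genes held 24, of which 12 fell, 6 rose and 6 missed the threshold, and its median log2 fold change was -0.14. The 4 genes with the smallest p all fell. Of the 6 that rose, Kcnq3, a potassium channel, and Ank3, an ankyrin, had the largest log2 fold changes, 0.48 and 0.47. Ank3 averaged 426 CPM with ONCM and 308 CPM with PBS. The scaffold gene Dlg2 rose by 0.22 on the log2 scale. Kcnq3, Ank3 and Dlg2 were named after their values were seen. Kcna2, a Shaker-type potassium channel, averaged 166 ± 12.5 CPM with ONCM and 369 ± 9.98 CPM with PBS (SD, n = 3 each), and its beta subunit Kcnab2 averaged 726 ± 25.5 and 1090 ± 5.68 CPM. Epb41l3, the band 4.1 protein that links Casprs to the cytoskeleton, averaged 914 ± 16.6 CPM with ONCM and 1300 ± 7.29 CPM with PBS. Lgi3, a secreted partner of the Adam22 family, averaged 98.1 ± 1.21 and 212 ± 7.24 CPM. In the order given, these 4 genes had no overlap between the groups, with log2 fold changes of -1.15, -0.58, -0.50 and -1.11 (edgeR adjusted p from 6.99e-15 to 9.65e-12). On the log2(TPM + 1) scale only 2 genes of this list rose.

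**Figure D5:**
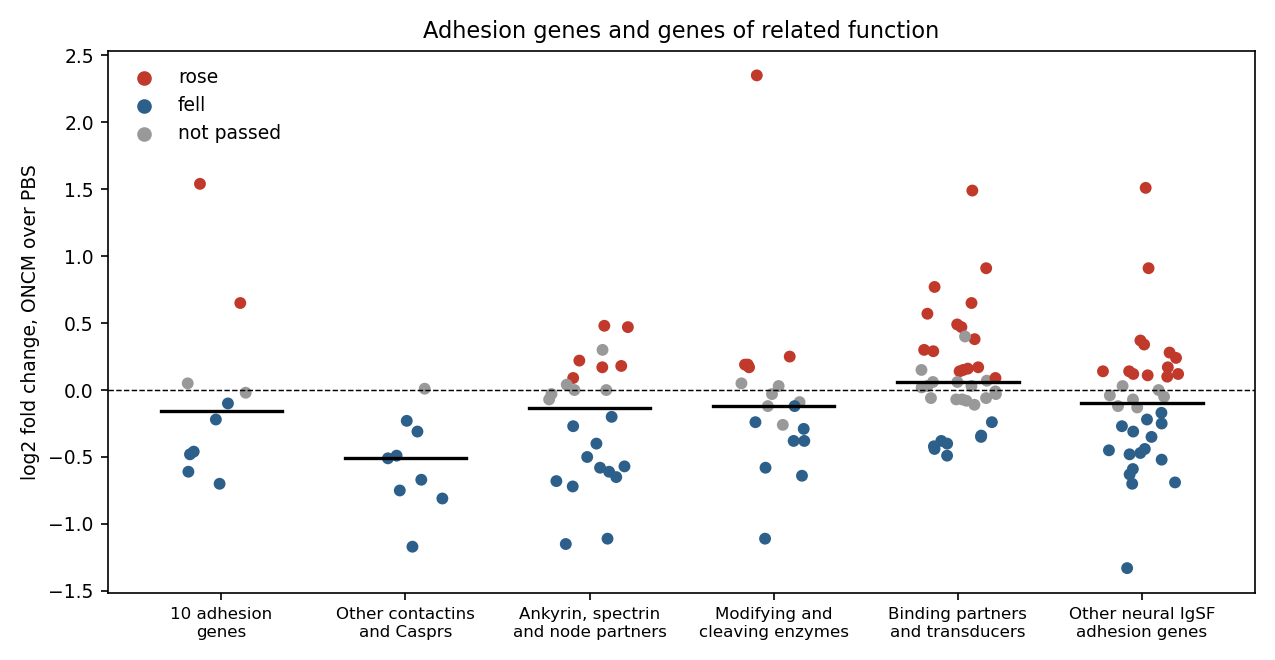
Log2 fold change of ONCM over PBS (y axis) for the 10 adhesion genes and for 5 lists of related genes (x axis), with a point per gene coloured by its edgeR call and a line at each median. The other contactins and Casprs have the lowest median, -0.51, and 1 of the 9 lies above 0, at 0.01.

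Of 19 genes for enzymes that modify or cleave these proteins, 8 fell, 5 rose and 6 missed the threshold, and the median log2 fold change was -0.12. The polysialyltransferases that act on NCAM did not pass, with St8sia2 at 0.827 ± 0.227 CPM with ONCM and 0.869 ± 0.212 CPM with PBS (SD, n = 3 each), and St8sia4 at 4.99 ± 0.346 and 5.41 ± 0.554 CPM. The metalloprotease gene Adam8, whose product is reported to cleave CHL1, rose 5.08-fold to 93.6 ± 2.5 CPM, against 18.4 ± 0.353 CPM with PBS. Psen2, a subunit of gamma-secretase, the sialyltransferase gene St3gal2 and Bace1, a protease for which CHL1 is a known substrate, had log2 fold changes of -0.58, -0.38 and -0.29 and fell.

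Binding partners and signal transducers numbered 39, of which 15 rose, 8 fell and 16 missed the threshold, and their median log2 fold change was 0.06. Gfra1, a GDNF receptor that also binds NCAM, rose 1.88-fold, and Gap43, a growth cone protein of neurons, rose 2.80-fold. Itgb1, the integrin beta chain reported to work with L1 and CHL1, averaged 665 ± 16.1 CPM with ONCM and 424 ± 5.17 CPM with PBS (SD, n = 3 each) and rose 1.57-fold, and Plxna4 rose 1.71-fold. On the log2(TPM + 1) scale 13 genes of this list fell. Other neural adhesion genes of the immunoglobulin superfamily numbered 36, of which 16 fell, 13 rose and 7 missed the threshold, and their median log2 fold change was -0.09. Bcam, a laminin receptor, and Sdk1, a sidekick protein, rose 1.87-fold and 2.86-fold, and Igsf21 and Lsamp had log2 fold changes of -1.33 and -0.70 and fell. On the log2(TPM + 1) scale 7 of this list rose. The IgLON genes, chosen for mention after their values were seen, all fell, with Negr1, Ntm, Opcml and Iglon5 at -0.63, -0.69, -0.31 and -0.48 beside Lsamp. All but Iglon5 span 755 kb or more. Among genes of at least 300 kb with a mean of at least 10 CPM, 57.3% fell and 17.8% rose. Each list stands beside shares of 23.9% raised and 24.4% lowered over all genes tested, and nothing particular to a list is read from its count.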

How the data were processed

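Total RNA was sequenced from 6 libraries, 3 given ONCM and 3 given PBS. The authors deposited 1 table with raw read counts, FPKM and TPM per gene, per the file headers. The deposited counts were tested, the deposited TPM gave levels and ratios, and the deposited FPKM values served as an alternative for the ratios. The genome build is mm10, per the submitters' processing notes. For the aligner, counter, annotation and strand handling, nothing is stated in the sources used here. Coordinates and promoters come from RefSeq tables of GRCm38.p6, matched by Entrez number for 45679 of 45777 genes.

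edgeR 4.0.16 in R 4.3.3 was run on all genes with filterByExpr, TMM scaling, estimateDisp and the robust quasi-likelihood F-test without covariates. The threshold was an adjusted p under 0.05, and "rose" or "fell" is written only of genes past it. The SE is the log2 fold change divided by the square root of F. Intervals are 95%. The test was checked on simulated counts in which few genes changed, unlike the 48.3% that passed here. That check does not cover change this broad. Replicates of a group differed by more than counting noise, with chi-square per degree of freedom from 2.76 to 7.09, so all 6 libraries were kept. A count of 3 in a library corresponds to 0.0465 to 0.0558 CPM, which covers counting error only. DESeq2 1.42.0 and limma 3.58.1 were run as alternatives.

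The 10 genes, the related lists and the motifs were chosen with earlier results of these data known. All 10 genes are named, and of each list up to 4 genes with the smallest p and a mean of at least 1 CPM. Exceptions are Dlg2, Ank3, Kcnq3, St8sia2, St8sia4, Cntnap3, Cntn3, Cntn4, the IgLON genes, and the markers Tubb3, Nefl, Dcn and Glul. These were named after their values were seen. No gene is named for a like pattern, because with 6 libraries in 2 groups likeness ranks genes by the difference itself.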

Additional observations from a re-analysis of the deposited data

How the results depend on the processing

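The calls of Chl1, Ncam1, Cntn1, Cntn2, Cntnap1, Cntnap2 and Ncam2 kept direction and threshold under other size factors, filters, DESeq2, TPM with limma, the removal of sex-linked and mitochondrial genes, the replicate block and each left-out library. L1cam turned to -0.01 on log2(TPM + 1) and on log2(TPM + 0.1), with neither past the threshold, and ran from 0.03 to 0.07 with a library left out, passing at 0.07 without ONCM replicate 3. The median of all genes was -0.04 and -0.06 on these TPM scales, and 39.2% of calls were rises there, beside 49.5% on counts. With a library left out, Nrcam ran from -0.05 to 0.00, turning to 0.00 without ONCM replicate 3, and on both TPM scales it stood at -0.08. Nfasc stood at -0.16 on both TPM scales, ran from -0.14 to -0.08 with a library left out and lost its call without ONCM replicate 1, ONCM replicate 3, PBS replicate 1 or PBS replicate 2. On both TPM scales 2 node and anchor genes rose in place of 6, 7 other immunoglobulin-superfamily genes rose in place of 13, and 13 binding partners fell in place of 8, beside the shift of the median given above. No other count moved by over 1.5 times.

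Replicate numbers did not pair the libraries, with correlations of deviations from -0.0453 to 0.00167 for equal numbers, and no ONCM library correlated best with its own number. With the replicate block, Chl1 had 1.54 and Nfasc -0.10 (edgeR adjusted p = 0.00859), and 4733 genes rose and 4864 fell, beside 4869 and 4960 without it. Ncam2, the member with the fewest counts (518 to 1062 in a library), had the widest interval of the 10, -0.68 to -0.29, and its SE was 0.09 with all libraries and 0.07 without ONCM replicate 3. Ratios kept their sign with FPKM and with each library left out.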
